A study of Arabidopsis thaliana with 8 samples.

Results

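Nuclear genes for subunits of the plant photosystems and their light-harvesting antenna were compared between WT Arabidopsis thaliana and the petc mutant. The genes are LHCB1.5 (AT2G34420, symbol LHB1B2 in RefSeq), PSAN (AT5G64040), PSBW (AT2G30570) and PSBY (AT1G67740). They were chosen by name, with earlier results of these data known. Each was taken from a probe that the platform annotation pairs with that gene and no other. Exactly 1 such probe was found for each of the 4 genes, among 692 probes annotated with 1 gene (691 genes) and 3439 probes in all, and no further annotated probe named any of them.

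Total RNA of 8 samples of the ecotype Landsberg was measured on expression arrays, 4 from WT and 4 from petc, each group numbered 1 to 4. The petc plants lack the Rieske iron-sulfur protein, a subunit of cytochrome b6f, and WT is the control of the same ecotype. The labels name no allele, tissue, plant age or growth regime, and PETC, the mutated gene, is not analysed here, so the labels were not checked through it. Nothing says that the numbered samples came from separate plants, so every p-value rests on a spread between samples that may be technical.

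In oxygenic photosynthesis, photosystem II takes electrons from water and passes them through plastoquinol to the cytochrome b6f complex, which hands them to plastocyanin and photosystem I. LHCB1 proteins form the bulk of the trimeric antenna that collects light mainly for photosystem II. PSBW and PSBY are small membrane proteins of photosystem II, of which PSBW helps to hold the core and its antenna together. PSAN sits on the lumenal side of photosystem I, where plastocyanin docks. All of these proteins are made in the cytosol and imported into the chloroplast.

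The deposited intensities are linear, run from 0 to a ceiling of 100 and have no stated unit. Probes with a value above 0 numbered 2999 to 3009 per sample in WT and 2978 to 2985 in petc. The summed intensity was 3287 to 3317 in WT and 3352 to 3440 in petc. Neither measure overlapped between the groups, and the cause was not tested. Sample medians on the log2 scale differed by up to 0.131. Within a group, numbers 1 and 2 resembled each other closely, as did numbers 3 and 4 (Spearman's rho across probes 0.982 to 0.990), while the pairs differed from one another (0.933 to 0.948) about as much as petc from WT within the same pair (0.929 to 0.948). Numbers 1 and 2, and numbers 3 and 4, are therefore called sets below. None of the 8 marker genes chosen for roots, senescent leaves or guard cells lay on a probe with 1 gene, so the tissue was not checked.

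All 4 genes were well above the typical probe. Ordered by mean deposited intensity, with rank 1 the brightest, LHCB1.5 stood at rank 20, PSBW at rank 24, PSAN at rank 82 and PSBY at rank 319 of 3439 probes. Among the 692 probes with 1 gene the same order gave ranks 3, 4, 16 and 59. No value of the 4 genes lay at 0 or at the ceiling. The brightness of a probe depends on its sequence as well as on the transcript, so these ranks do not order the transcripts by abundance.

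PSBW, the small photosystem II subunit, was higher in petc and passed the test under all 3 scalings of the arrays, though not when samples of a set were treated as correlated readings. Its deposited intensity was 17.7, 19.0, 19.6 and 17.9 in WT numbers 1 to 4 and 26.3, 28.3, 25.4 and 25.1 in petc numbers 1 to 4. Every petc sample lay above every WT sample, and the gap between the groups was wider than the range within either. The means were 18.5 ± 0.882 in WT and 26.3 ± 1.43 in petc (SD, n = 4 each). On the log2 scale after quantile normalisation the difference, petc minus WT, was 0.45 ± 0.10 (SE), with a 95% interval of 0.23 to 0.66 and limma adjusted p = 0.00955. In these bulk samples, a change in the share of a cell type and a change in RNA per cell cannot be told apart.

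The petc over WT ratio of PSBW was 1.49 in number 1, 1.49 in number 2, 1.299 in number 3 and 1.399 in number 4. Its rank among all probes moved from 25 to 28 in WT to 17 to 21 in petc. The adjusted p stayed below 0.05 when any 1 sample was left out (0.01482 to 0.03035), but not when the samples of a set were treated as correlated readings (0.1009) or replaced by their means (0.283), nor in numbers 3 and 4 alone (0.05095).

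LHCB1.5, the light-harvesting protein, differed the other way, and its call depended on how the arrays were scaled. Its deposited intensity was 28.9, 27.6, 34.03 and 31.4 in WT numbers 1 to 4. In petc it was 23.6, 24.5, 24.3 and 21.0, with number 4 the lowest. Every petc sample lay below every WT sample. The means were 30.5 ± 2.84 in WT and 23.4 ± 1.61 in petc (SD, n = 4 each).

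After quantile normalisation the LHCB1.5 difference was -0.32 ± 0.12 on the log2 scale (SE, 95% interval -0.59 to -0.04), with limma adjusted p = 0.08536. With the values as deposited it was -0.38 ± 0.10 (adjusted p = 0.02495) and after median centring -0.42 ± 0.11 (adjusted p = 0.02872), so the gene passed under those scalings and not under the first. The adjusted p ranged from 0.02495 to 0.4362 over all settings. With the samples of a set as correlated readings the limma adjusted p was 0.4289, in a fit on quantile-normalised values. That fit was not made under the other scalings for any of the genes. The petc over WT ratio was 0.818 and 0.889 in numbers 1 and 2, and 0.716 and 0.671 in numbers 3 and 4. LHCB1 proteins come from several similar genes, and the probe was not checked by sequence, so the signal may include transcripts of the others.

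PSAN, the photosystem I subunit, had a difference whose sign turned with the scaling. Its deposited intensity was 4.46, 4.43, 4.25 and 4.33 in WT numbers 1 to 4. In petc it was 5.42, 5.67, 4.87 and 5.31, so that as deposited the lowest petc sample lay above the highest WT sample. The means were 4.37 ± 0.0965 in WT and 5.32 ± 0.336 in petc (SD, n = 4 each).

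As deposited, the PSAN difference was 0.28 ± 0.08 on the log2 scale (SE, 95% interval 0.09 to 0.47, limma adjusted p = 0.03577), and the petc over WT ratio was above 1 in all 4 numbers, from 1.14 to 1.28. After median centring it was 0.24 ± 0.10 with adjusted p = 0.1107. After quantile normalisation it was -0.02 ± 0.09 (95% interval -0.22 to 0.18, limma adjusted p = 0.8735), the groups overlapped and 2 of the 4 numbers had petc above WT. Quantile normalisation works on ranks, and the probe's rank was 79 to 83 in WT and 76 to 91 in petc.

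PSBY, the other small photosystem II subunit, is made in Arabidopsis as a precursor that is cut into a pair of membrane chains. Its deposited intensity was 1.366, 1.211, 1.187 and 1.186 in WT numbers 1 to 4 and 1.405, 1.3996, 1.514 and 1.602 in petc numbers 1 to 4. As deposited the groups did not overlap, but WT number 1 lay closer to the lowest petc sample than to the next WT sample. The means were 1.24 ± 0.0862 in WT and 1.48 ± 0.0972 in petc (SD, n = 4 each). After quantile normalisation the groups overlapped, and the difference was 0.16 ± 0.10 on the log2 scale (SE, 95% interval -0.06 to 0.39) with limma adjusted p = 0.2687.

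The petc over WT ratio of PSBY was 1.03 in number 1, 1.16 in number 2, 1.28 in number 3 and 1.35 in number 4. After quantile normalisation the log2 difference was 0.03 with numbers 1 and 2 by themselves (limma adjusted p = 0.8799). With numbers 3 and 4 by themselves it was 0.30 (limma adjusted p = 0.04609), in a fit where 35.3% of probes passed. Each of these fits is of 2 against 2 samples, and its spread is that within a set. Whether the sets differed was not tested.

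**Figure D1:**
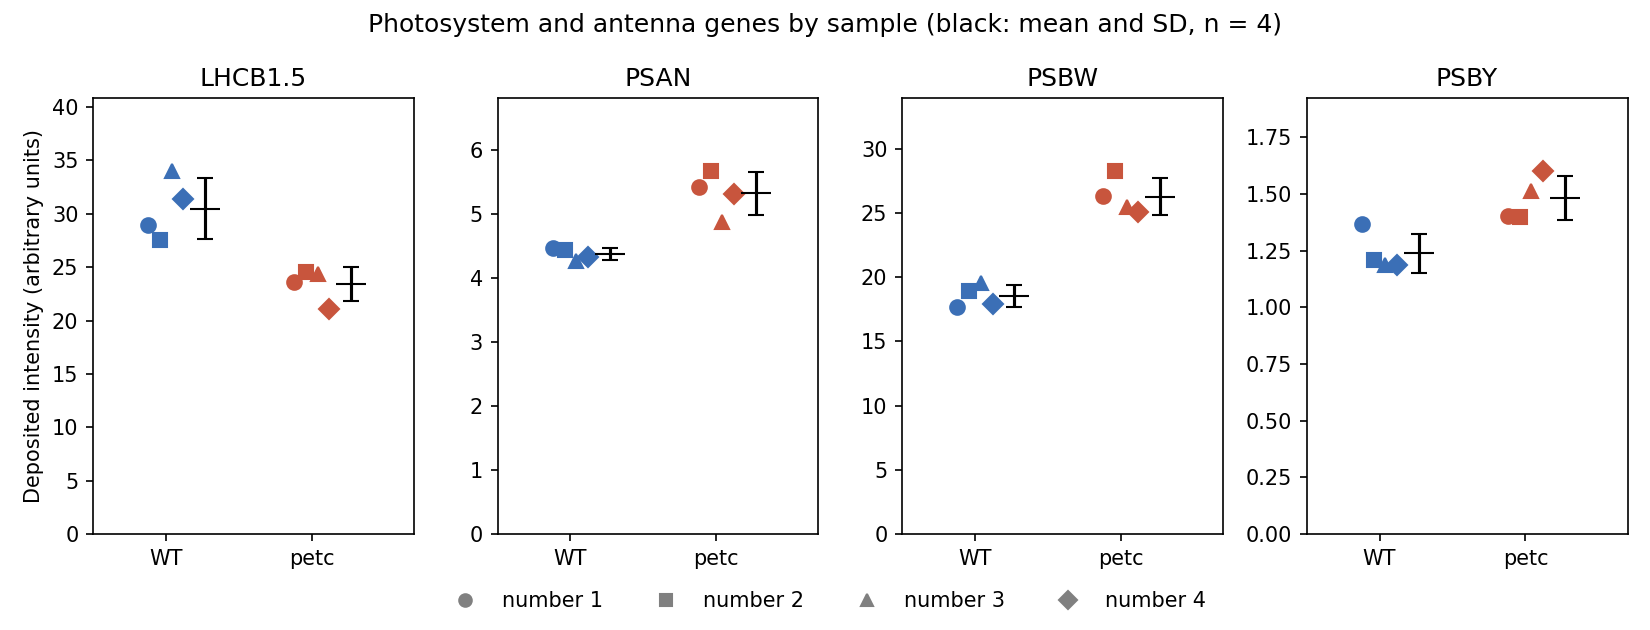
Deposited intensity in arbitrary units of LHCB1.5, PSAN, PSBW and PSBY in each WT and petc sample, with the replicate number as the symbol and the mean and SD of 4 samples in black. LHCB1.5 has means of 30.5 in WT and 23.4 in petc, PSBW lies at 18.5 in WT and 26.3 in petc, and in all 4 panels the groups do not overlap.

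Read together, 1 of the 4 genes passed after quantile normalisation, PSBW, where 27.9% of 2947 tested probes passed, 12.7% as higher and 15.3% as lower in petc. As deposited 3 of the 4 passed, PSBW and PSAN higher and LHCB1.5 lower, where 28.3% of probes passed, 15.2% as higher and 13.1% as lower. After median centring 2 of the 4 passed, PSBW higher and LHCB1.5 lower, where 26.9% passed, 13% as higher and 13.9% as lower. The groups did not overlap for all 4 genes as deposited, against 32% of tested probes, and for PSBW and LHCB1.5 after quantile normalisation, against 32.5%. The median difference of the 4 genes was 0.07 after quantile normalisation, beside -0.02 over all tested probes, and 0.27 as deposited, beside 0.05. With 4 genes, nothing is read from these shares about photosystem genes as a group.

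The choice of scaling shifted the median of the brightest probes more than that of all tested probes. Bright probes did not all move alike. From deposited to quantile-normalised values, the log2 difference of PSAN went from 0.28 to -0.02. That of LHCB1.5 moved the other way, from -0.38 to -0.32. Over the 100 brightest tested probes, to which LHCB1.5, PSBW and PSAN belong, the median petc minus WT difference was 0.11 on the log2 scale as deposited, 0.07 after median centring and -0.00 after quantile normalisation. Of those 100 probes, 57 were higher in petc as deposited and 50 after quantile normalisation. The differences of PSBW and LHCB1.5 kept their sign under all 3 scalings, and that of PSBY did as well.

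**Figure D2:**
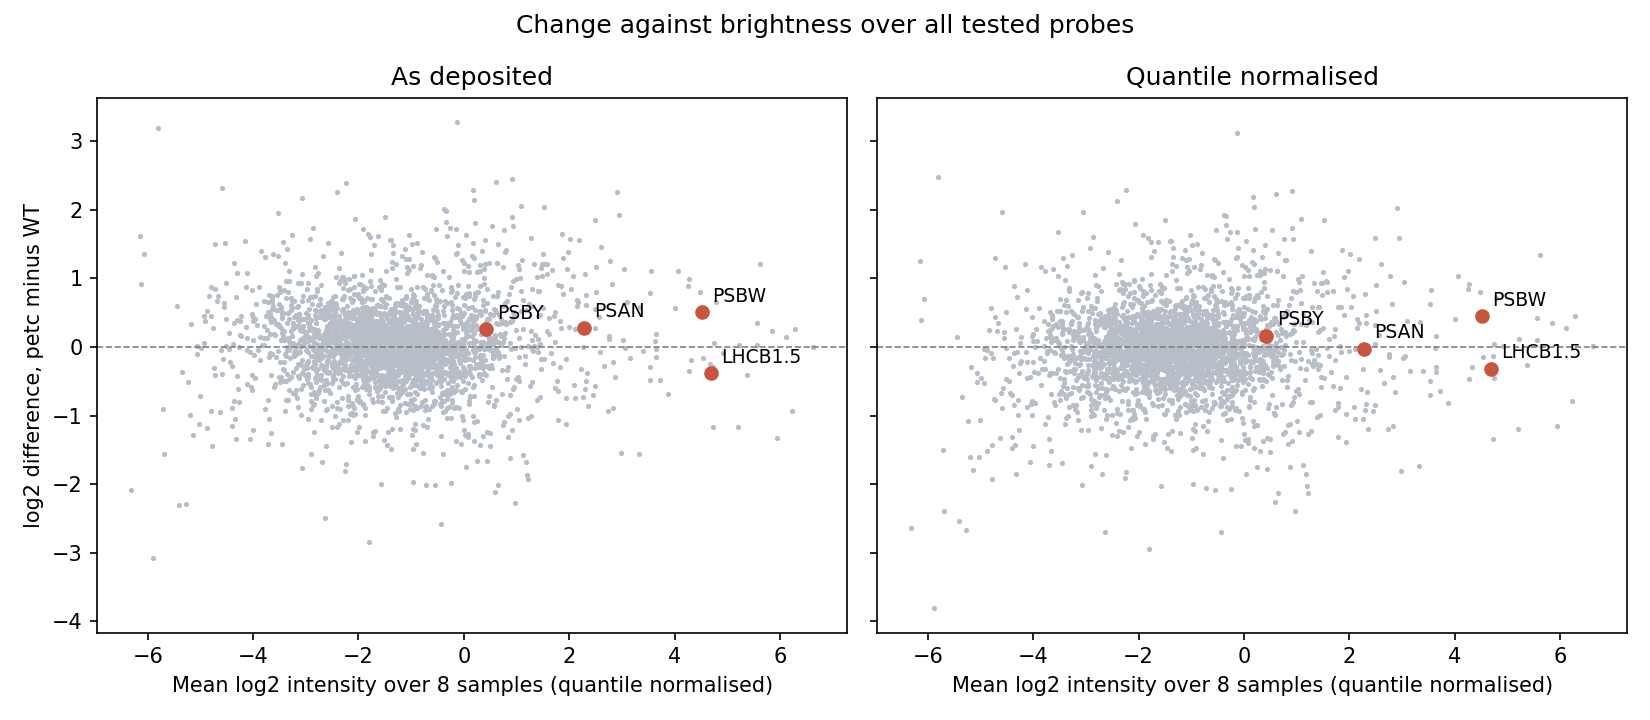
Log2 difference, petc minus WT, of all 2947 tested probes against their mean log2 intensity, as deposited (left) and quantile normalised (right), with the 4 genes in red. PSBW and LHCB1.5 lie close together in brightness and on opposite sides of 0 in both panels, while PSAN moves from 0.28 to -0.02.

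**Figure D3:**
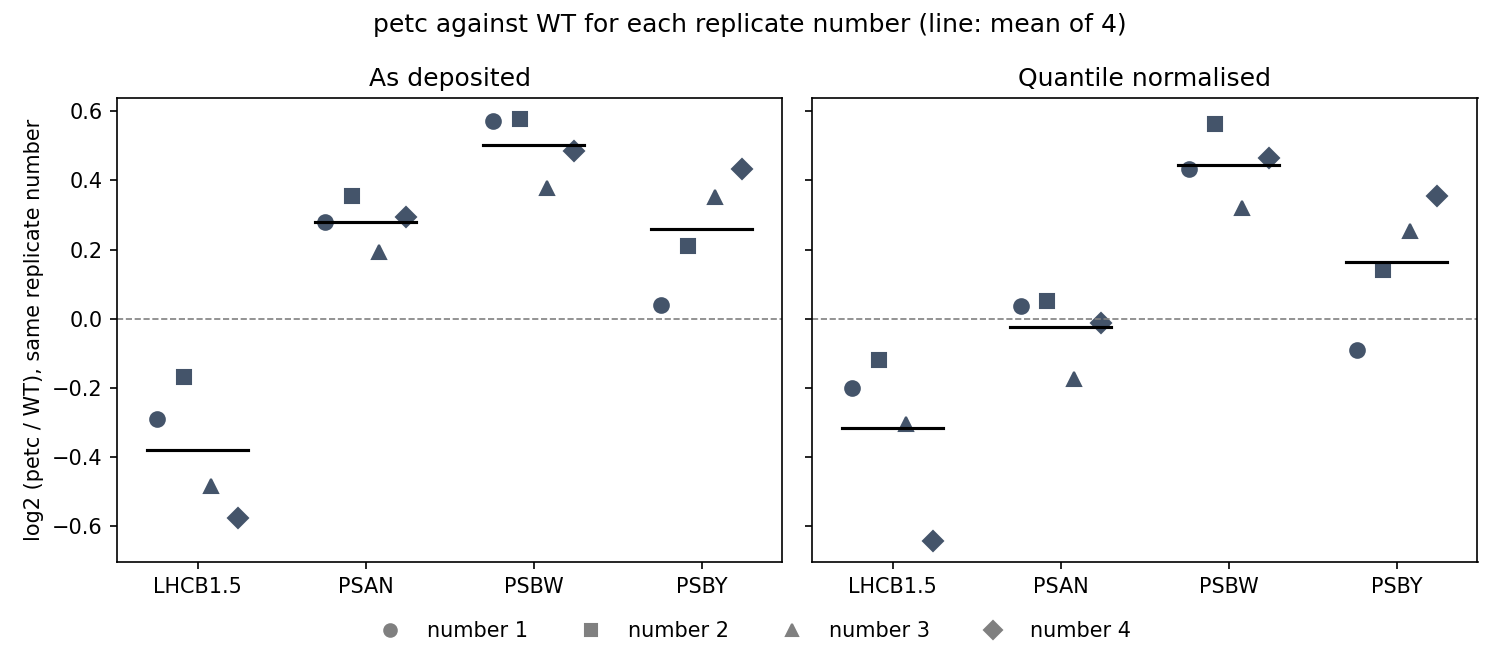
Log2 of petc over WT between samples of the same replicate number, as deposited (left) and quantile normalised (right), with 4 points and their mean (line) for each gene. All PSBW points lie above 0 and all LHCB1.5 points below 0 in both panels, and the PSAN points move from between 0.19 and 0.35 to around 0.

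Ratios between the genes within a sample do not depend on a factor by which an array was scaled. A ratio of intensities is not a ratio of transcripts, since the probes differ. Its change from WT to petc shows unequal change of the genes only where arrays differ by such a factor alone. A difference in scale that varies with brightness would not cancel. After quantile normalisation the log2 difference of PSAN over LHCB1.5 went from 0.66 to 0.29, and that of PSBW over PSAN from 0.22 to 0.47. PSBW over LHCB1.5 was 0.612, 0.687, 0.575 and 0.571 in WT numbers 1 to 4 and 1.113, 1.153, 1.045 and 1.191 in petc numbers 1 to 4. PSBW was thus the dimmer probe in every WT sample and the brighter one in every petc sample. The mean ratio was 0.612 ± 0.0538 in WT and 1.13 ± 0.0628 in petc (SD, n = 4 each).

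The PSBW over LHCB1.5 ratio was 1.84-fold higher in petc, or 0.88 on the log2 scale, with an exact two-sided permutation p = 0.0286, the smallest that 4 against 4 samples can give (0.0429 adjusted over the 6 ratios compared). It was higher in 4 of 4 replicate numbers, by 1.68-fold to 2.08-fold. Taken from quantile-normalised values the log2 difference was 0.76. With the replicate numbers as pairs, the exact sign-flip p was 0.125, the smallest that 4 pairs can give, so no ratio could pass in a paired test. With a set as the unit, 2 against 2, no p below 0.333 could be reached. The permutation treats the 8 samples as exchangeable, which the likeness within sets does not bear out.

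The ratios of the other subunits to LHCB1.5 were also higher in petc. PSAN over LHCB1.5 was 0.154, 0.161, 0.125 and 0.138 in WT numbers 1 to 4 and 0.229, 0.231, 0.200 and 0.252 in petc. As deposited the groups did not overlap. The difference was 0.66 on the log2 scale (exact permutation p = 0.0286, adjusted 0.0429, and 0.125 in the exact paired test). From quantile-normalised values it was 0.29 and the groups overlapped, with petc number 3 below WT number 2. PSBY over LHCB1.5 was 0.0349 to 0.0473 in WT and 0.0571 to 0.0761 in petc. Its difference was 0.64 (exact permutation p = 0.0286, adjusted 0.0429, and 0.125 in the exact paired test), and within the sets it was 0.35 for numbers 1 and 2 and 0.92 for numbers 3 and 4.

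Ratios among the photosystem subunits themselves were compared in the same way. PSBW over PSAN was 3.96, 4.28, 4.60 and 4.14 in WT numbers 1 to 4 and 4.86, 4.99, 5.23 and 4.73 in petc. The groups did not overlap, with a difference of 0.22 on the log2 scale (exact permutation p = 0.0286, adjusted 0.0429, and 0.125 in the exact paired test) and 0.47 from quantile-normalised values. PSBW over PSBY was 12.96 to 16.5 in WT and 15.6 to 20.2 in petc, and these ranges overlapped (exact permutation p = 0.0857, adjusted 0.1029). PSBY over PSAN was 0.273 to 0.306 in WT and 0.247 to 0.311 in petc, with a difference of -0.02 (exact permutation p = 0.8286, adjusted 0.8286).

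The 6 ratios come from 4 genes and are not independent, and 3 of the 4 that did not overlap as deposited share LHCB1.5. The adjusted p of 0.0429 in the exact permutation test rests on all 4 of these lying at its smallest p, 0.0286. It holds for deposited values only. After quantile normalisation PSAN over LHCB1.5 no longer separated the groups, and no permutation p is given for that scaling. For comparison, 29.4% of all 171991 pairs among 587 probes with 1 gene had ratios that did not overlap between the groups. The difference of PSBW over LHCB1.5 was larger in size than that of 78.3% of these pairs, whose median was 0.44. That of PSAN over LHCB1.5 was larger than 66.8% of them, and that of PSBW over PSAN than 27.4%.

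**Figure D4:**
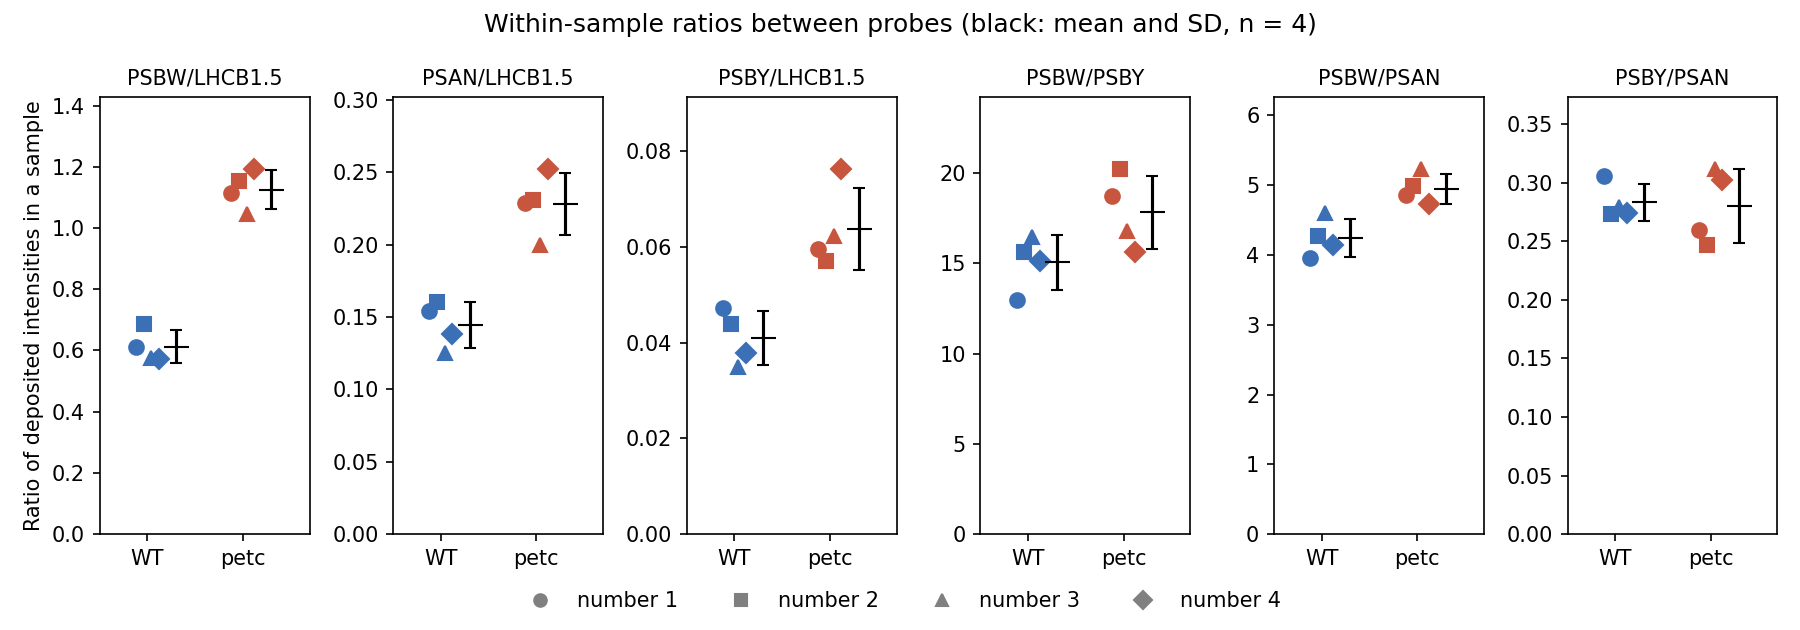
Ratio of deposited intensities between probes in each WT and petc sample for the 6 pairs of genes, with the replicate number as the symbol and the mean and SD of 4 samples in black. The ratio of PSBW to LHCB1.5 lies between 0.571 and 0.687 in WT and between 1.04 and 1.19 in petc, while those of PSBW to PSBY and of PSBY to PSAN overlap between the groups.

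Between samples of a group, all 4 genes varied less than the median probe, but within sets LHCB1.5 did not. The probes compared were not matched for brightness, and 90.7% or more of all probes were dimmer than each of the 4 genes. The pooled SD of the quantile-normalised log2 value was 0.07 for PSAN, 0.10 for PSBW, 0.10 for PSBY and 0.15 for LHCB1.5, where the median over all tested probes was 0.23. For PSAN, 2.65% of tested probes had a smaller SD, and for LHCB1.5, 25.6%. Within sets the SD was 0.06 for PSAN, 0.08 for PSBW, 0.08 for PSBY and 0.15 for LHCB1.5, against a median of 0.13.

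Of 86 genes listed for photosystem II, photosystem I, the antenna, electron transport, the Calvin cycle and chlorophyll synthesis, 8 were tested on a probe with 1 gene, the 4 described and 4 others. Of the 8, 1 rose, PSBW, and 1 fell, PRK, for the Calvin cycle enzyme phosphoribulokinase (log2 difference -1.47 ± 0.13, SE, limma adjusted p = 0.0001348), where 27.9% of all tested probes passed. With the samples of a set as correlated readings PSBW did not pass (adjusted p = 0.1009) and 1 of the 8 did. PSB27, an assembly factor of photosystem II, had -0.37 ± 0.29 (adjusted p = 0.3954). Of the chlorophyll synthesis enzymes, the reductase CHLP had 0.08 ± 0.09 (adjusted p = 0.6135) and the methyltransferase CHLM had 0.22 ± 0.15 (adjusted p = 0.3329). As deposited 5 of the 8 passed, 3 higher and 2 lower, with PSAN, CHLP and LHCB1.5 added, where 28.3% of all tested probes passed. The median difference of the 8 was 0.03, beside -0.02 over all tested probes.

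The genes with the most similar patterns over the 8 samples were found by Pearson's r of quantile-normalised log2 values among 581 other probes with 1 gene. The closest to PSBW were AT5G03900 (r = 0.970), AT3G06570 (r = 0.969) and AT4G27510 (r = 0.966), which as deposited stood at ranks 7, 1 and 21. AT3G06570 had mean deposited intensities of 1.44 ± 0.0894 (WT) and 5.97 ± 0.727 (petc), each with its SD over 4 samples, a larger change than that of PSBW in the same direction. The closest to LHCB1.5 were AT5G19940 (r = 0.978), AT4G01810 (r = 0.931) and AT3G24190 (r = 0.923), which as deposited stood at ranks 10, 69 and 1.

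The closest to PSBY were Cpn60beta3 (r = 0.887), a subunit of the plastid chaperonin, AT4G27250 (r = 0.861) and AT5G36470 (r = 0.858), which as deposited stood at ranks 1, 8 and 7. The closest to PSAN were AT5G14590 (r = 0.904), AT4G12270 (r = 0.849) and UGT74D1 (r = 0.821), which as deposited stood at ranks 409, 156 and 239, AT5G14590 with r = -0.43. The likeness thus depended on the scaling, most of all for PSAN. The samples share the group and set differences, so these values describe the pattern and carry no test.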

How the data were processed

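The authors deposited 1 table of intensities on a linear scale, per the file headers 1 column per sample. How the arrays were scanned, corrected, scaled and filtered is not given in the sources used. No per-sample column was set aside (0). The number of arrays limits the precision. Gene names came from GEO's platform annotation, which gives 1 gene for 692 probes, several for 870 and none for 1877. The RefSeq gene table of TAIR10.1, used for names only, held 690 of the 692.

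Values of 0 were treated as missing, the others were taken to log2 and quantile normalised, and a probe was tested if it had 3 or more values per group (2947 probes, 595 with 1 gene). limma 3.58.1 (lmFit, eBayes) in R 4.3.3 was fitted to all 8 samples with the group as its term. It was first tested on simulated data with independent samples, which do not hold the likeness within sets. The Benjamini-Hochberg adjustment ran over all tested probes, with a threshold of 0.05. Ratios within a sample used deposited values and an exact two-sided permutation test over samples, with Benjamini-Hochberg adjustment over the 6. Figures were drawn with matplotlib 3.10.9.

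Samples of the same replicate number deviated together from their group means (Pearson r 0.586 to 0.649 over 2911 probes, all 8 samples best with their own number), against 0.415 to 0.472 for the other number of the same set. The numbers were therefore taken to pair the samples in the fit with the replicate number as a block and in the sign-flip tests. The main limma fit and the permutation test did not use the pairing. This pairing was read from the data and not from a label, and the fit with the block is an alternative.

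The genes named are the 4 described, every other tested gene of the photosynthesis lists, and for each of the 4 the 3 most alike probes with 1 gene, above 0 in all 8 samples. Genes, lists, sets and tests were chosen with earlier results of these data known. Probe, promoter and protein sequences were not used here.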

Additional observations from a re-analysis of the deposited data

Results flagged for a closer look

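Samples far from the other 3 of their group were looked for in 32 groups of 4 values, covering the 4 genes, the 6 ratios and the sample totals. In 3 of them a sample stood apart, where chance gives about 1.6 for independent samples, and the sets make that level uncertain. The deposited PSBY intensity of WT number 1 was 1.366 in a group whose other samples had a median of 1.187; without this sample the log2 difference of PSBY was 0.23 with limma adjusted p = 0.1334. WT number 1 had 440 probes listed at 0 where the remaining WT samples had a median of 431, and petc number 4 had 461 where the remaining petc samples had 455.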

How the results depend on the processing

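Of 198 recomputed values, 171 kept their direction and side of the threshold, or for values and counts stayed within their spread or within 1.5 times. Some settings, such as the blocks, leave the difference unchanged by construction. A gene that did not pass in either fit also counts as kept, so the tally does not measure robustness. The 823 probes called (373 higher, 450 lower) became 1374 with the replicate number as a block and 1358 with the set as a block, 345 with the samples of a set as correlated readings, and 0 in limma with the means of those samples (585 at an unadjusted p below 0.05), an alternative chosen with earlier results of these data known. Leaving out 1 sample gave 630 to 729. As deposited 448 were higher and 385 lower. The replicate block changed no call of the 4 genes. PSBW kept its difference of 0.45 but lost its call with correlated readings and with the means, and lost it in numbers 3 and 4 alone (0.39). LHCB1.5 gained a call as deposited (-0.38) and after median centring (-0.42). PSBY gained one in numbers 3 and 4 alone (0.30). PSAN, which passed as deposited alone, had -0.02 after quantile normalisation, and turned as deposited (0.28), after median centring (0.24), in numbers 1 and 2 alone (0.0450) and without petc number 3 (0.0246), with -0.0583 to 0.0246 over all samples left out. The 2 listed photosynthesis genes called became 5 as deposited, 1 with correlated readings and 0 with the means.

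Among ratios, log2 differences from quantile-normalised values were 0.76 for PSBW over LHCB1.5, 0.29 for PSAN over LHCB1.5, 0.47 for PSBW over PSAN and 0.19 for PSBY over PSAN. In numbers 1 and 2 alone they were 0.35 for PSBY over LHCB1.5, 0.45 for PSBW over PSBY and -0.19 for PSBY over PSAN, and in numbers 3 and 4 alone 0.92, 0.0386 and 0.15. The cause of these shifts was not tested. With the replicate block, the exact sign-flip p of the ratios cannot go below 0.125.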
